A study of Mus musculus with 6 samples.

Results

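The genes described here are interferon-stimulated genes, measured in mouse hematopoietic LSK cells with and without the transcription factor SRF. The list names 39 genes, and a probe set was taken where its platform annotation names one of them and no other gene. This found 36 of the 39 genes, on 54 of 45101 probe sets, and each gene was represented by its brightest probe set among 18193 genes in all. Isg15, Oas1g and Ifi44 had no probe set naming them alone and have no value here. LSK cells are the Lin-Sca1+c-Kit+ fraction of bone marrow, which holds the stem cells and multipotent progenitors of blood.

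Control mice were Srf+/+;Mx1-Cre and SRF-null mice were Srf flx/flx ;Mx1-Cre, both of the C57BL/6 strain. Both groups received pIpC, a synthetic double-stranded RNA, in 3 intraperitoneal injections of 200 µg spaced by 2 days from an age of 6 weeks, and cells were sorted 35 days after the last one. Cre was under the Mx1 promoter, which is itself switched on by interferon, and pIpC was given to release interferon and so produce Cre. Each of the 3 control and 3 SRF-null arrays holds RNA of LSK cells from pooled animals. The sources used here do not give the size of a pool, and a p-value below therefore reflects the spread among these arrays alone. All 6 arrays come from mice that received pIpC, and no untreated mice were measured, so the data compare genotypes after pIpC and do not measure induction by pIpC.

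Type I interferons bind a receptor that activates a transcription factor complex containing STAT2 and IRF9, which switches on genes through a DNA element called the ISRE. Type II interferon acts mainly through the GAS element, and it induces Irf1 and many of the guanylate-binding and immunity-related GTPases. In bone marrow, pIpC and interferon drive quiescent stem cells into division, and Sca1, an antigen of the LSK gate, is itself raised by interferon.

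Many of the promoters searched, but not all, carry letters like those of these elements. Sequences are from RefSeq (GRCm38.p6, 250 bases before to 50 after a gene's start), where 30 of the 39 genes matched and some have several starts. An ISRE-like repeat, GAAANNGAA or its reverse complement TTCNNTTTC, was found for 19 of these 30 genes, against 8.56% of all 32851 windows in the table and 9.76% of genes. For a GAS-like motif, TTCNNNGAA, which reads the same on both strands, the count was 9 of 30 against 9.55% of genes. A match describes letters and is not a measured binding site. The stretches below are shown because they let the repeat be compared between members of different roles. Each runs 5′ to 3′ along its gene, with the ISRE-like letters in capitals and overlapping repeats run together.
Isg15, chr4:156200861-156200911, minus strand: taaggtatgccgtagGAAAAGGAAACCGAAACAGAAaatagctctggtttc
Oas1a, chr5:120907516-120907560, minus strand: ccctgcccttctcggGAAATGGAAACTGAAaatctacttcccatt
Oas3, chr5:120777705-120777749, minus strand: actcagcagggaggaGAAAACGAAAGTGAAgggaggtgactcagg
Irgm1, chr11:48871421-48871465, minus strand: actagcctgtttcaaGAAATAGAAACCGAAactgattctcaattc
Igtp, chr11:58199507-58199545, plus strand: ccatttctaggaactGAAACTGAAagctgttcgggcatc
Gbp2, chr3:142620590-142620628, plus strand: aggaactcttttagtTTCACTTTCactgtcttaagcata
Gbp3, chr3:142559985-142560029, plus strand: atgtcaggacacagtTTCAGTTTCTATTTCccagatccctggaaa
Ifih1, chr2:62646344-62646382, minus strand: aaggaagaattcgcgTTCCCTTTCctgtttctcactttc
Rsad2, chr12:26456548-26456586, minus strand: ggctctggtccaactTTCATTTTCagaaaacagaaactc
Stat2, chr10:128270262-128270300, plus strand: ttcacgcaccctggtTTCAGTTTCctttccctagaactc
Cxcl10, chr5:92349079-92349117, minus strand: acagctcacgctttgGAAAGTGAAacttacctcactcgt
Bst2, chr8:71537573-71537617, minus strand: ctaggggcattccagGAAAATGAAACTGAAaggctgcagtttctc
Eif2ak2, chr17:78882525-78882569, minus strand: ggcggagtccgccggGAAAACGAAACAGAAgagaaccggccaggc

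Isg15 has 3 overlapping repeats and Bst2 and Eif2ak2 have 2 each, those of Eif2ak2 after the start, whereas Gbp2, Igtp, Rsad2, Stat2 and Cxcl10 have a single one. The GAS-like motif of Bst2 overlaps its ISRE-like repeats. In Oas1a and Oas1g this stretch of 45 bases was identical. The next pair shows whole windows of the gene whose array-to-array pattern was most like that of the other members, Ifit1, and of the gene least like them, Irf1, with ISRE-like and GAS-like letters in capitals. Counted in bases from the start, Ifit1 has 3 ISRE-like repeats between −109 and −76 and no GAS-like motif, and Irf1 has a GAS-like motif from −90 to −82 and no ISRE-like repeat.
Ifit1, chr19:34640639-34640938, plus strand: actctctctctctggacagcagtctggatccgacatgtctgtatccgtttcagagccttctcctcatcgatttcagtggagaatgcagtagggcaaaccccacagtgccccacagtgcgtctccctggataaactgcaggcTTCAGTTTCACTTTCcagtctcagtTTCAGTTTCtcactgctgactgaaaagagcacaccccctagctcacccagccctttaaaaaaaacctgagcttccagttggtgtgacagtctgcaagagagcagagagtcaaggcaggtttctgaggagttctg
Irf1, chr11:53769764-53770063, plus strand: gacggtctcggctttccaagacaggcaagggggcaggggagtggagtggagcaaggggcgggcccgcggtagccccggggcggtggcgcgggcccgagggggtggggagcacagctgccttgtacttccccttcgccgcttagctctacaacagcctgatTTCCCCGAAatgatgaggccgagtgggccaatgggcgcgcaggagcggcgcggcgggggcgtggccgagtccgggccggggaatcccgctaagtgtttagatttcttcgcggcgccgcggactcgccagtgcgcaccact

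**Figure D1:**
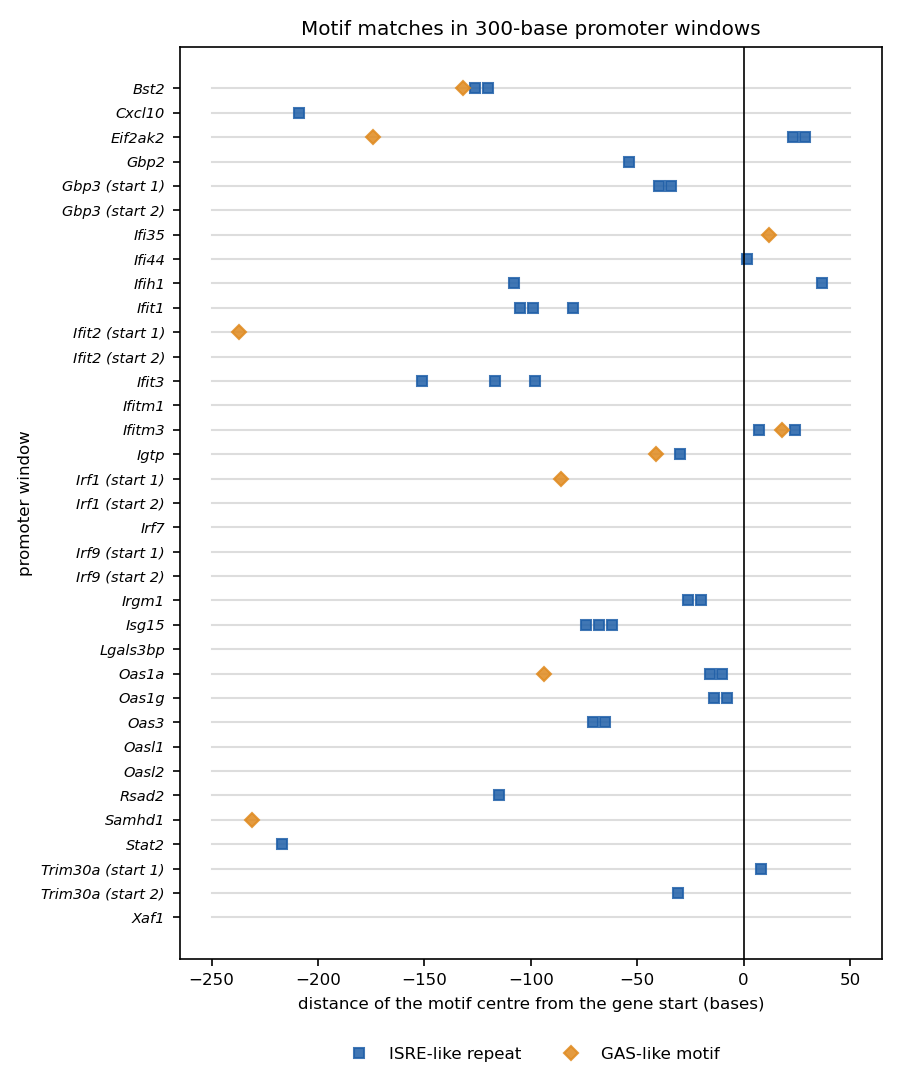
Positions of ISRE-like repeats (blue squares) and GAS-like motifs (orange diamonds) in the promoter windows of 30 member genes, one line per annotated start, against distance from the start in bases. Of 35 ISRE-like repeats 26 lie within 130 bases before the start and 6 after it, and 11 of the 30 genes have none.

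Facts of the arrays that touch these genes come first. Values are log2(signal + 16) after quantile normalization, and a difference is SRF-null minus control. Srf, the deleted gene, was at 13.04, 13.00 and 13.04 on the control arrays and at 12.58, 12.43 and 12.80 on the SRF-null arrays (difference −0.42, SE 0.13, limma adjusted p = 0.771), so SRF-null lay below control on every array by a modest amount. Of 11 measured stem and progenitor markers 0 were under a signal of 16 throughout, and Kit, the receptor of the gate, was at 14.85 to 15.44 in control and 14.81 to 14.98 in SRF-null cells. Ly6a, which encodes Sca1, is not analysed here. The Y-linked gene Kdm5d was at 4, the floor of the scale, on control 2 and 10.54 to 11.98 elsewhere, and Xist was at 5.03 on SRF-null 1 and 15.13 to 16.24 elsewhere, so these arrays carried transcripts of 1 sex only. Between the genotypes 0 of 18193 genes (0%) had a limma adjusted p under 0.05, and 1044 (5.74%) had an unadjusted p under 0.05.

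Interferon-stimulated genes were mostly lower in SRF-null cells, by small amounts, and none passed the test. The mean was lower in SRF-null cells for 31 of 36 members, where 51.4% of all genes were lower, and the median difference was −0.34 over members and −0.0069 over all genes. Members varied together over the arrays, as described below, so this count does not stand for 36 independent observations. After adjustment over all genes 0 of 36 passed, the smallest limma adjusted p being 0.631. An unadjusted p under 0.05 was found for 3 members, where 5.74% of all genes had one. These were Gbp2 and Oas2, lower, and Ifi27l2a, higher. The arrays of the genotypes did not overlap for 4 members, Gbp2, Irgm1, Samhd1 and Ifi27l2a. Of all genes 10.6% did not overlap, so this count was near the background. The direction rested on particular arrays. Without control 2, the array on which 30 of 36 members were highest, 22 were lower and the median was −0.072. Without control 2 and SRF-null 1, the arrays with transcripts of 1 sex, 14 of 36 were lower and the median was 0.061. SRF-null 1 was the lowest array for 19 members, so leaving out both arrays removes a high control and a low SRF-null array. The sex of their transcripts and their high or low place cannot be told apart here. With any 1 array left out, 22 to 34 were lower and the median stayed below 0 (−0.50 to −0.072).

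**Figure D2:**
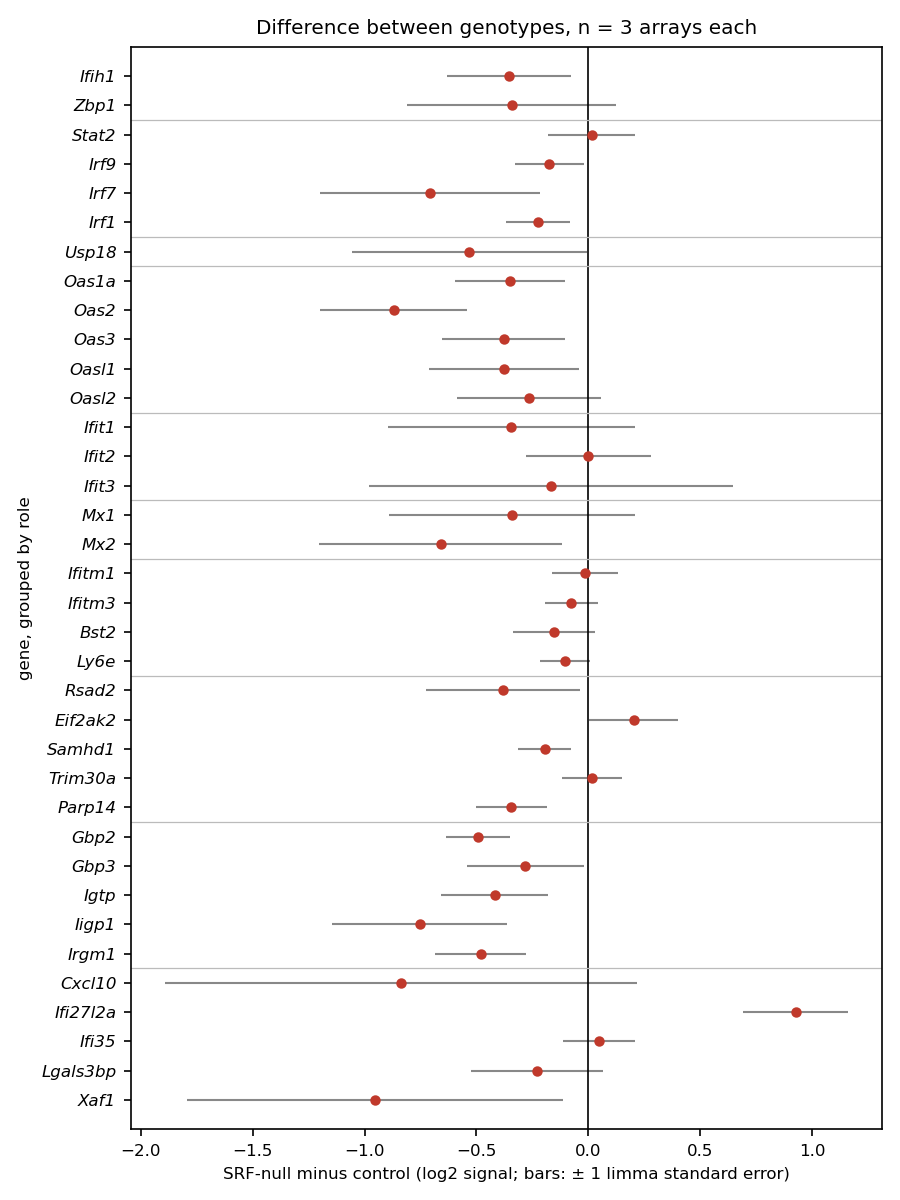
SRF-null minus control on the log2 signal scale for each of the 36 measured genes (points) with 1 limma standard error (bars), 3 arrays per genotype, grouped by role. Most points lie left of 0, Ifi27l2a stands apart on the right at 0.93, and wide bars mark genes such as Cxcl10 and Xaf1 that varied strongly between arrays.

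Replicate numbers were shared between the genotypes, but the sample titles state no pairing. Deviations of arrays of equal number correlated weakly over all genes (0.13 to 0.37) and unevenly over members (−0.19 to 0.82). The comparison was therefore also made within numbers, as a pairing inferred from these same values. Fewer transcripts per cell and fewer cells of a type that express them cannot be told apart in these pools. Within number 1 the SRF-null array was lower for 30 of 36 members (median −0.34) and 47.9% of all genes, and within number 2 for 32 members (median −0.42) and 50.3% of all genes. Within number 3 it was lower for 21 members (median −0.052) and 54.6% of all genes, a share near the background. All 3 numbers showed a lower SRF-null value for 18 members, against 16% of all genes, and a higher one for 2 members, Eif2ak2 and Ifi27l2a, against 14%. With the number as a block in the limma fit, 9 members had an unadjusted p under 0.05, against 8.12% of all genes, and 0 passed adjustment (smallest adjusted p = 0.405). They were Cxcl10, Gbp2, Ifih1, Igtp, Iigp1, Mx2, Oas2 and Parp14, all lower, and Ifi27l2a, higher.

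The members also varied with the replicate number. On arrays of number 2 the members were high in both genotypes: the median member lay 0.59 above the mean of the other controls on control 2 and 0.45 above the mean of the other SRF-null arrays on SRF-null 2, where the medians over all genes were 0.046 and 0.045. In 27 of 36 members number 2 was the highest array of both genotypes, where 15.8% of all genes showed this. Relative to each gene's mean over the 6 arrays, the median member was at −0.043, 0.58 and −0.056 on controls 1 to 3 and at −0.37, 0.15 and −0.19 on SRF-null arrays 1 to 3. SRF-null 1 was the lowest array of all for 19 members, and control 2 for 0. The share of a member's variation over the 6 arrays that lay between replicate numbers had a median of 60.5%, and the share between genotypes 18.7%, against 45.6% and 12.7% over all genes. The share between numbers was the larger for 27 of 36 members and for 74.2% of all genes, so this count was at the background.

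**Figure D3:**
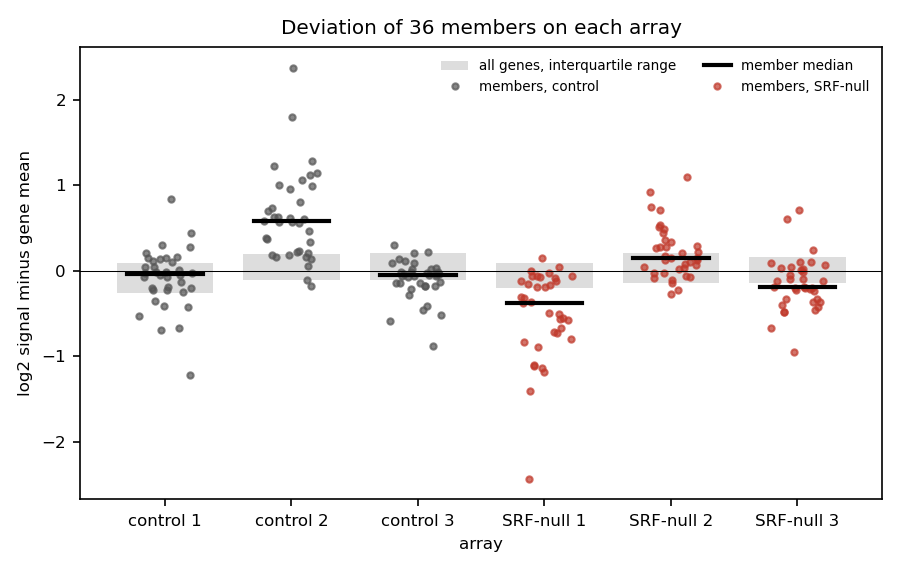
Deviation of each of 36 members from its mean over the 6 arrays (points, log2 signal), with the member median (black line) and the interquartile range of all 18193 genes (grey). The member median lies above the grey range on control 2 (0.58), inside it on SRF-null 2 (0.15) and below it on SRF-null 1 (−0.37) and SRF-null 3 (−0.19).

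The excess of 3′ over 5′ signal of control probe sets was also largest on the arrays of number 2. The RNA was amplified before hybridisation, and whether this excess reflects RNA quality was not tested. The 3′ minus 5′ log2 signal of the Actb control probe sets was 1.45 on control 2 and 1.51 on SRF-null 2, against 0.93 to 1.35 on the other arrays. For Gapdh it was 1.20 and 1.16, against 0.67 to 0.99. The part of this excess in the pattern of the members was not tested. Control 2, the highest array for 30 members, had Kdm5d at 4, and SRF-null 1, the lowest for 19, had Xist at 5.03. SRF-null 2 carried both Xist and Kdm5d. The part of sex in the pattern of the members was not tested.

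Members followed one another over the arrays. After each genotype's mean was removed, Pearson correlation over the 6 arrays had a median of 0.70 over 630 pairs of members, against 0.10 between members and all other genes. These values are descriptive, as the same 6 arrays enter each pair. The median correlation of a gene with the other members was highest for Ifit1 (0.86), Zbp1 (0.85), Ifit3 (0.84), Mx2 (0.84) and Stat2 (0.83). It was lowest for Irf1 (−0.61), followed by Ifitm1 (0.27), Bst2 (0.33), Ly6e (0.33), Trim30a (0.39), Xaf1 (0.42) and Samhd1 (0.43), while the surface protein gene Ifitm3 was at 0.66. Among genes with a matched promoter, the 16 measured genes with an ISRE-like repeat had a median of this value of 0.72 and the 11 without one 0.68.

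**Figure D4:**
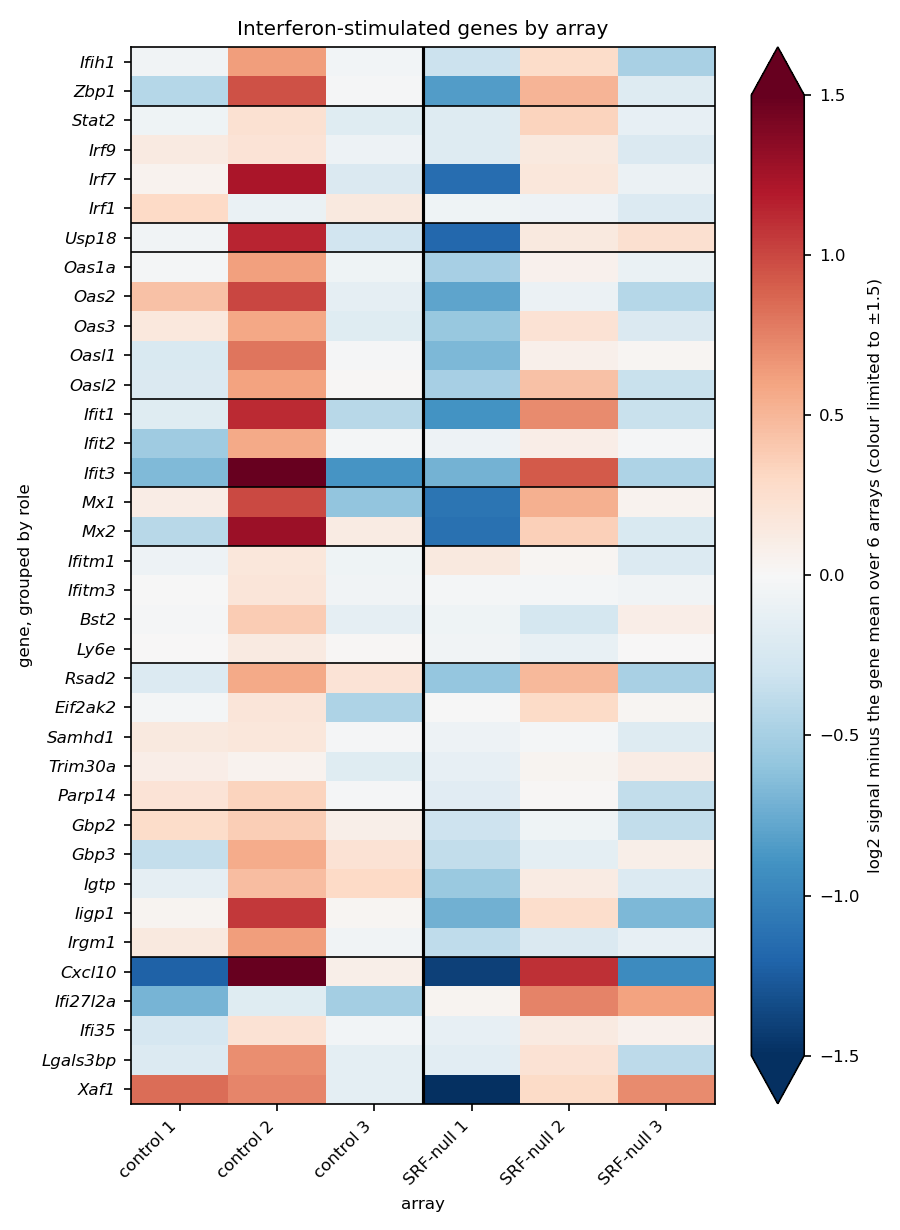
Heat map of log2 signal minus each gene's mean over the 6 arrays for 36 genes grouped by role (rows) and the 6 arrays (columns), red above and blue below the mean. Control 2 holds the highest value for 30 of the 36 genes and SRF-null 1 the lowest for 19.

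The sensors of foreign nucleic acid were lower in SRF-null cells within every number. Ifih1, which encodes the double-stranded RNA sensor MDA5, was at 13.45, 14.13 and 13.47 on controls 1 to 3 and at 13.18, 13.78 and 13.02 on SRF-null arrays 1 to 3. The genotypes overlapped, since SRF-null 2 lay above 2 controls, and the difference was −0.36 (SE 0.28, limma adjusted p = 0.960). Zbp1, a sensor of left-handed nucleic acid, differed by −0.34 (SE 0.47) and spread over 1.79 between arrays, with number 2 highest in both genotypes.

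The transcription factors of the pathway did not move alike. Irf7, which amplifies type I interferon production, was at 12.04, 13.22 and 11.78 in control and 10.85, 12.16 and 11.90 in SRF-null cells. Control 2 was the highest array, SRF-null 1 the lowest, and number 3 ran the other way, so the difference of −0.71 (SE 0.49, limma adjusted p = 0.955) was within the spread, and it was 0.12 without those arrays. Irf9, the DNA-binding subunit of the type I complex, was at 13.90, 13.97 and 13.69 in control and 13.57, 13.92 and 13.54 in SRF-null cells (difference −0.17, SE 0.16, adjusted p = 0.963). Its arrays were close together and the genotypes overlapped. Stat2, its partner, was at 10.80, 11.10 and 10.69 in control and 10.67, 11.20 and 10.75 in SRF-null cells (difference 0.014, SE 0.19, adjusted p = 0.999, 95% interval −0.46 to 0.49). Number 2 was the highest in both genotypes, and another Stat2 probe set differed by −0.47 (SE 0.24).

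Irf1, a factor induced mainly by type II interferon, had another order of arrays. It was at 15.35, 14.94 and 15.19 in control and 14.98, 14.97 and 14.84 in SRF-null cells. Control 2, highest for most members, was the lowest control here, and the difference was −0.23 (SE 0.14, limma adjusted p = 0.946). The other members for which control 2 was not the highest control were Trim30a and Xaf1.

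Of the ISG15 system only Usp18 has a value, the protease that removes ISG15 and restrains the type I receptor. It was at 13.16, 14.35 and 12.92 in control and 12.03, 13.36 and 13.45 in SRF-null cells. SRF-null 1 and control 2 were the extremes, and the difference was −0.53 (SE 0.52, limma adjusted p = 0.971).

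All 5 measured genes of the 2-5A synthetase family, enzymes that activate RNA decay or resemble those that do, were lower in SRF-null cells. Oas2 was at 11.76, 12.32 and 11.18 in control and 10.52, 11.23 and 10.89 in SRF-null cells. It was lower within each number, although control 3 lay just below SRF-null 2, and the difference was −0.87 (SE 0.33), or 1.83-fold lower (limma adjusted p = 0.852). Oas1a (−0.35, SE 0.24), Oas3 (−0.38, SE 0.27), Oasl1 (−0.38, SE 0.33) and Oasl2 (−0.27, SE 0.32) had differences under 2 standard errors, and of the family Oasl1 alone was not lower within every number. Number 2 was the highest array of both genotypes in all 5.

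The IFIT genes, whose products bind foreign RNA, differed more between replicate numbers than between genotypes. Ifit3 was at 10.08, 12.54 and 9.86 in control and 10.03, 11.67 and 10.28 in SRF-null cells. Number 2 stood apart in both genotypes, 2.57 above the mean of the other controls and 1.51 above the mean of the other SRF-null arrays, while the genotypes differed by −0.17 (SE 0.81, limma adjusted p = 0.993). Ifit1 was at 12.86, 14.16 and 12.63 in control and 12.15, 13.75 and 12.71 in SRF-null cells (difference −0.34, SE 0.55). Again the number 2 arrays were the high ones. Ifit2 differed by −0.00079 (SE 0.28), with a 95% interval of −0.68 to 0.68, which does not show that it was equal.

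Mx1 and Mx2 encode dynamin-like antiviral GTPases, and RefSeq lists both as transcribed pseudogenes in the C57BL/6J reference. Mx1, whose promoter drives Cre in both groups, was at 11.71, 12.60 and 11.01 in control and 10.50, 12.14 and 11.65 in SRF-null cells. The order of the genotypes changed with the number, and the difference of −0.34 (SE 0.55, limma adjusted p = 0.991) became 0.070 without control 2, 0.12 without SRF-null 1 and 0.53 without both. The probe set is annotated to the endogenous gene, and the Cre transgene was not measured. Mx2 was at 7.58, 9.28 and 8.12 in control and 6.88, 8.35 and 7.76 in SRF-null cells. It was lower within each number (difference −0.66, SE 0.54, limma adjusted p = 0.960, and 0.496 with the number as a block).

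Genes for membrane and surface proteins that hinder virus entry or release varied little on their brightest probe sets. On these, Ifitm1, Ifitm3, Bst2 and Ly6e differed by −0.15 to −0.016, and their arrays spread over 0.24 (Ifitm3) to 0.65 (Bst2). Ifitm1, Ifitm3 and Ly6e were very bright, at 17.17 to 17.94, and whether saturation narrowed their spread was not tested. A dimmer Ly6e probe set, at 10.57 to 11.30, differed by −0.26 (SE 0.23). Ifitm3 was at 17.45, 17.64 and 17.40 in control and 17.43, 17.43 and 17.41 in SRF-null cells (difference −0.076, SE 0.12). Control 2 alone stood above the rest.

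The other antiviral effectors were divided. Samhd1, which degrades nucleotides needed for viral DNA synthesis, was at 15.36, 15.38 and 15.20 in control and 15.14, 15.19 and 15.03 in SRF-null cells. The genotypes did not overlap, although the difference was small (−0.19, SE 0.12, limma adjusted p = 0.946), and its 4 other probe sets were also lower, with differences of −0.34 to −0.069. Parp14, an ADP-ribosyltransferase, was at 14.89, 15.02 and 14.66 in control and 14.52, 14.71 and 14.32 in SRF-null cells. SRF-null 2 lay above control 3, and the difference was −0.34 (SE 0.16, adjusted p = 0.877). Rsad2, which encodes viperin, differed by −0.38 (SE 0.35). Eif2ak2, the gene of the double-stranded RNA-activated kinase PKR, was higher in SRF-null cells by 0.20 (SE 0.20), 0.66 (SE 0.26) and 0.40 (SE 0.22) on its 3 probe sets. Trim30a, a regulator of inflammatory signalling, gave 0.015 (SE 0.13), but a further probe set of the gene gave −0.74 (SE 0.40).

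The guanylate-binding and immunity-related GTPases, which attack the vacuoles of intracellular microbes, were lower in SRF-null cells in 5 of 5 genes, and within every number. Gbp2 was at 13.58, 13.66 and 13.39 in control and 12.99, 13.23 and 12.93 in SRF-null cells. Every SRF-null array lay below every control, by a difference of −0.49 (SE 0.14), or 1.41-fold (limma adjusted p = 0.717), and its second probe set differed by −0.46 (SE 0.22). Irgm1 was at 14.30, 14.78 and 14.10 in control and 13.77, 13.93 and 14.03 in SRF-null cells. Here too the genotypes did not overlap (difference −0.48, SE 0.20, 1.40-fold, adjusted p = 0.859), but control 3 and SRF-null 3 were nearly equal.

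Iigp1 was at 13.27, 14.28 and 13.26 in control and 12.50, 13.49 and 12.56 in SRF-null cells. Number 2 was high in both genotypes and the SRF-null array was lower by a similar amount within each number. The difference of −0.75 (SE 0.39) had a limma adjusted p of 0.897, and of 0.405 with the number as a block. Igtp (−0.42, SE 0.24) had an adjusted p of 0.535 with the block, and Gbp3 differed by −0.28 (SE 0.26). The difference of Gbp2 ranged from −0.58 to −0.40 and of Irgm1 from −0.63 to −0.22 over the other settings tried.

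**Figure D5:**
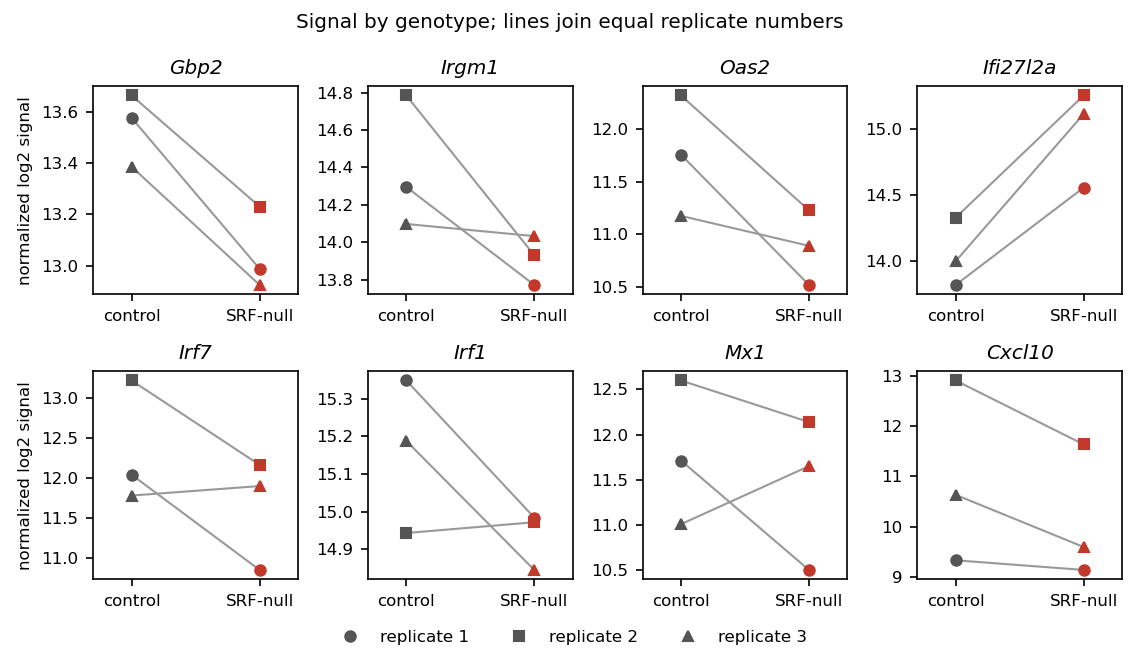
Normalized log2 signal of 8 genes on each array, control left and SRF-null right, with lines joining arrays of equal replicate number (circle 1, square 2, triangle 3) and a separate axis for each gene. Lines fall for all numbers in Gbp2, Irgm1, Oas2 and Cxcl10, rise in Ifi27l2a, and differ in direction between numbers in Irf7, Irf1 and Mx1.

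Ifi27l2a, which encodes a small interferon-induced protein of the mitochondrial and nuclear membranes, had the largest difference above 0 of the members. It was at 13.82, 14.33 and 14.00 in control and 14.56, 15.25 and 15.11 in SRF-null cells. Every SRF-null array lay above every control, by 0.93 (SE 0.23), or 1.90-fold (limma adjusted p = 0.631), and the difference was 0.79 to 1.27 over the other settings. It shared the high number 2 arrays with the other members in both genotypes.

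Cxcl10, a chemokine gene, had the widest spread of any member, at 9.33, 12.91 and 10.63 in control and 9.13, 11.64 and 9.59 in SRF-null cells. Number 2 was far above the others in both genotypes, and the difference of −0.84 (SE 1.05, limma adjusted p = 0.987) was smaller than the spread between controls. Xaf1, whose product promotes apoptosis, had the lowest difference, −0.95 (SE 0.84, adjusted p = 0.963), at 14.64, 14.54 and 13.66 in control and 11.37, 14.09 and 14.51 in SRF-null cells. This value rested on SRF-null 1: without that array the difference was 0.022, and the second probe set differed by 0.35 (SE 0.76). Lgals3bp (−0.23, SE 0.29) and Ifi35 (0.049, SE 0.16), the remaining members, had overlapping genotypes, and both were highest on number 2 within each genotype. The other Ifi35 probe sets had the opposite sign, at −0.15 (SE 0.28) and −0.18 (SE 0.25).

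Of the 36 genes 24 had a single probe set, and 12 had 18 further ones. Of those 18 probe sets 14 were lower in SRF-null cells and 6, in 5 genes, had the opposite sign to the brightest one. These genes were Ifi35, Parp14, Stat2, Trim30a and Xaf1. In a fit of all 45037 probe sets other than controls, 0 of the 54 passed adjustment and 45 were lower.

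Other genes of the pathway were read from a list of 60, of which 49 were measured, and 36 of these were lower and 13 higher in SRF-null cells (median −0.12), where 51.4% of all genes were lower. By limma 0 passed adjustment, and 3 had an unadjusted p under 0.05, a share near the 5.74% of all genes. The interferon genes Ifnb1, Ifna2, Ifna4 and Ifna5 were under a signal of 16 on all arrays, so transcripts of these ligands were not detected above this level. Receptor and kinase genes were split, 4 lower and 3 higher, with Ifnar1, a chain of the type I receptor, at −0.060 (SE 0.14). Of 19 further induced genes 17 were lower, among them Tap1, a peptide transporter (−0.31, SE 0.12, adjusted p = 0.858), and Herc6, an ISG15 ligase (−0.38, SE 0.15, adjusted p = 0.858). Tlr3, the endosomal double-stranded RNA receptor, was at 10.12, 10.76 and 10.20 in control and 10.62, 11.24 and 11.65 in SRF-null cells (difference 0.81, SE 0.31, limma adjusted p = 0.852). It thus ran against the 7 of 8 sensing genes that were lower.

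Markers of other cells that a sorted pool could hold were read from 6 lists, and 0 of their genes passed adjustment by limma. Of 11 measured monocyte and macrophage genes 11 had a higher mean in SRF-null cells, where 48.6% of all genes did. Their summed signal was 38418 to 53973 in SRF-null cells against 14467 to 42320 in control, so the genotypes overlapped in this sum. Csf1r made up 30.5% to 60.0% of it, and without Csf1r the sum was 19209 to 34973 against 10051 to 17324, without overlap. By limma 4 of the 11 had an unadjusted p under 0.05, all higher, where 5.74% of all genes had one. Of the 11 genes 0 were under a signal of 16 on all arrays. Of the plasmacytoid dendritic cell list, whose cells make much interferon, 5 of 7 genes were higher. Its sum (91684 to 92242 against 72619 to 83453) was 77.7% to 94.9% Tcf4, which other cells also express, and without Tcf4 it was 7867 to 20532 against 4265 to 8892, with overlap. Its more specific gene Siglech was at 6.84, 10.48 and 9.92 in control and 7.11, 10.74 and 13.33 in SRF-null cells, and Ccr9 at 8.85, 4.86 and 7.33 in control and 10.34, 11.20 and 9.63 in SRF-null cells. Number 2 was thus the highest control for Siglech and the highest SRF-null array for Ccr9, but neither gene had number 2 highest in both genotypes. Klk1 of the same list did, at 11.73, 12.80 and 12.55 in control and 12.04, 12.65 and 12.38 in SRF-null cells. Klk1 (−0.0056) and Pacsin1 (−0.11) were the genes of the list that were not higher.

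The other sums also rested on single genes. Of 7 T and NK cell genes 6 were higher, and Nkg7 made up 98.9% to 99.6% of the sum (76568 to 84357 against 56286 to 66398), while Cd3g was under 16 on all arrays. Without Nkg7 the sum was 591 to 877 in SRF-null cells against 256 to 471 in control, without overlap. By limma 2 of the 7 had an unadjusted p under 0.05, all higher, where 5.74% of all genes had one. B cell genes (4 of 4 higher, Pax5 under 16 throughout) summed to 18145 to 24402 against 19118 to 19476, of which Cd79b was 95.5% to 99.9%. Granulocyte genes (4 of 6 higher) summed to 212583 to 243412 against 167014 to 241106, of which Mpo, also a gene of progenitors, was 79.8% to 91.4%. Erythroid genes (3 of 3 higher, Hba-a1 under 16 throughout) summed to 1067 to 7957 against 1907 to 2868, of which Klf1 was 81.2% to 90.8%. Without the leading gene the B cell, granulocyte and erythroid sums each overlapped between the genotypes. The part of other cells in the differences of the members was not tested.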

How the data were processed

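The authors deposited linear intensities, 1 for each probe set on each array. The sources used here do not say how these were summarised, background-corrected and scaled. RNA (30 ng) was amplified and biotin-labelled before hybridisation, per the labels' protocols. The number of arrays limits the precision.

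Values became log2(intensity + 16). Array medians differed by 0.51, so arrays were quantile normalized. Folds are on this scale and understate the change of dim genes. Each gene is its brightest probe set naming it alone, with no filter. Genotypes were compared with limma 3.58.1 in R 4.3.3 (lmFit, eBayes, two-sided) and Benjamini-Hochberg adjustment over all 18193 genes, and the script was tested on simulated data. Errors are moderated standard errors.

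Equal replicate numbers were taken as pairs because deviations from genotype means correlated over all genes at 0.20, 0.13 and 0.37 (numbers 1, 2 and 3). Over the members the values were 0.26, 0.82 and −0.19. The pairing was thus inferred from the values and is not given by the sample titles.

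Members and lists were chosen with earlier results of these data known. All members are reported; array values are given for the pathway factors and for members by p, overlap or size of difference, and for some others chosen after their values were seen. Motifs were searched with Python 3.11.15, and figures drawn with matplotlib 3.10.9.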

Additional observations from a re-analysis of the deposited data

How the results depend on the processing

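No member passed adjustment in the limma fit under any of the 19 other settings (normalization, offset, filter on dim genes, variance model, choice of probe sets, replicate block, and arrays left out). Over all genes the count was 1 in place of 0 under median centring and under a robust, trended variance model, and 0 to 1 when 1 array was left out. With 1 array left out, 22 to 34 members were lower and the median difference was −0.50 to −0.072. With both arrays of 1 sex left out (control replicate 2, SRF-null replicate 1), 14 were lower and the median was 0.061, and Irf7 was at 0.12, Mx1 at 0.53, Xaf1 at 0.15 and Stat2 at 0.23. Without control replicate 2 and SRF-null replicate 2, an alternative chosen after seeing the data, 28 were lower, the median was −0.29 and Stat2 was at −0.031. Stat2 was also negative without normalization (−0.0066), after median centring (−0.027) and as a mean of its probe sets (−0.23). With 1 array left out Stat2 ranged from −0.15 to 0.13, Mx1 from −0.72 to 0.12, Xaf1 from −1.55 to 0.022 and Irf7 from −0.99 to −0.27. The cause of these changes was not tested. The replicate block gave 0 members past adjustment and changed no call, while 9 members in place of 3 had an unadjusted p under 0.05. The stricter ISRE-like motif, with a further A, was found for 18 of 30 genes against 19. Signal over background was not available, and the 3 arrays of a genotype limit what can be told.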

Other observations

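Probe sets that name a member together with another gene lay outside the choice of members. The probe set shared by Isg15, the ubiquitin-like modifier, and Gm9706 was at 13.83, 14.66 and 13.32 on controls 1 to 3 and 13.18, 13.83 and 13.34 on SRF-null arrays 1 to 3, a difference of −0.49 (SE 0.37). Number 2 was the highest array of both genotypes there too. The probe set shared by Trim30a and Trim30d was at 12.65, 11.87 and 11.94 in control and 12.15, 11.05 and 10.46 in SRF-null cells (−0.93, SE 0.47), with number 1 highest in both genotypes.

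Ifi44l, a relative of the unmeasured member Ifi44 and chosen after its values were seen, was high on 1 array of each genotype. Its brightest probe set was at 11.77 on control 1 and 13.53 on SRF-null 2, and at 4 to 4.32 on the other 4 arrays, and its other probe sets were also high on these arrays alone (9.87 and 12.14, and 6.51 and 8.25). Neither array is control 2, on which most members were highest. Further relatives, chosen in the same way, showed no common direction: Oas1b differed by −0.15 (SE 0.34), Oas1c by 0.32 (SE 0.33), Ifi47 by 0.10 (SE 0.15) and Ifitm2 by 0.0050 (SE 0.11). Gbp6, from the pathway list, differed by −1.28 (SE 1.07) with values of 11.83, 13.95 and 12.63 in control and 9.52, 13.57 and 11.49 in SRF-null cells, again with number 2 highest in both.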
